A study of Triticum aestivum with 45 samples.

Results

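The 57 genes described here had low RNA levels in bread wheat spikelets after methyl jasmonate (MeJA), in 3 genotypes, and had similar levels in untreated and water-sprayed spikelets. They were chosen on measured values. In each genotype, the mean level was at least 5 CPM (counts scaled to library totals of 1000000) after water, the mean after water was between 0.5 and 2 times the untreated mean, and the mean after MeJA was at most 25% of the mean after water. Of the 110790 genes counted, 27252 met both criteria on water and untreated libraries in all genotypes, and 57 of those (0.209%) also met the MeJA criterion in all genotypes. A further 58 of the 27252 met the MeJA criterion in exactly 2 genotypes and 54 in exactly 1.

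Spikes of hexaploid wheat (Triticum aestivum) were sprayed at anthesis to run-off with 100 µM MeJA, ethephon or salicylic acid (SA), or with water, and 1 spikelet per spike was taken 8 h later. Untreated spikelets were taken at 0 h, with no spray. Line DH1, named GS-1-EM0040, has the pedigree CIMMYT11/Superb*2. Line DH2, named GS-1-EM0168, has the pedigree CM82036/Superb*2. Each is a single doubled haploid line with Superb, a Canadian Hard Red Spring cultivar and the other genotype, as recurrent parent. Each of the 15 combinations of genotype and treatment had 3 libraries, 45 in all, and the sprayed groups drew on 5 plants each, while the number of untreated plants is not given in the labels. Whether replicates came from separate plants is not stated, so p-values reflect how far these samples scatter, a scatter that may be technical only. A whole spikelet mixes floral organs and bracts, and in such bulk tissue fewer cells of a type and less RNA per cell cannot be told apart.

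Jasmonates are lipid-derived hormones of wounding, defence and flower development. In the pathway worked out in Arabidopsis, the conjugate jasmonoyl-isoleucine joins the F-box receptor COI1 to JAZ repressor proteins, the JAZ proteins are degraded, and transcription factors such as MYC2 are released. Jasmonate treatment of plants is known both to induce defence genes and to lower the RNA of many genes of growth and photosynthesis. SA is a hormone of defence against biotrophic pathogens, and ethephon breaks down in the plant to ethylene. The files give gene identifiers without names, so the function of these 57 genes is not described, nor was the labelled tissue checked against marker genes.

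The libraries held between 6446374 and 17940396 counts, and the median library 11251553. A pair of libraries stood apart, each with counts of genes particular to another genotype. Over 34 genes expressed in DH1 and at 5% or less of that level in DH2 and Superb, ethephon replicate 1 of Superb held 25.9% of the DH1 level, and the other 14 Superb libraries held between 0.574% and 1.43%. Over 36 such genes of DH2, ethephon replicate 1 of DH1 held 13.7% of the DH2 level, and the other 14 DH1 libraries held between 0.521% and 1.36%. These genes were set without the ethephon libraries. Values without them are given for summed shares, medians and counts of called genes.

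After MeJA, the RNA of the 57 genes together made up 0.0240 ± 0.00411% of all counts in DH1, 0.0318 ± 0.0168% in DH2 and 0.0291 ± 0.0127% in Superb (SD, n = 3 each). After water, the same genes made up 0.159 ± 0.0144% in DH1, 0.186 ± 0.0107% in DH2 and 0.187 ± 0.00110% in Superb (SD, n = 3 each). Every MeJA library of a genotype lay below every water library of that genotype. After ethephon the share was 0.148 ± 0.0135% in DH1, 0.197 ± 0.0267% in DH2 and 0.160 ± 0.0282% in Superb. Without ethephon replicate 1 it was 0.140 ± 0.00136% in DH1 and 0.175 ± 0.0151% in Superb (SD, n = 2 each). After SA it was 0.183 ± 0.0144% in DH1, 0.226 ± 0.0310% in DH2 and 0.209 ± 0.0236% in Superb. Untreated spikelets held 0.171 ± 0.00309% in DH1, 0.191 ± 0.0181% in DH2 and 0.182 ± 0.0339% in Superb. The ethephon and SA shares lay near those of water and untreated spikelets in all genotypes, far above those of MeJA.

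**Figure D1:**
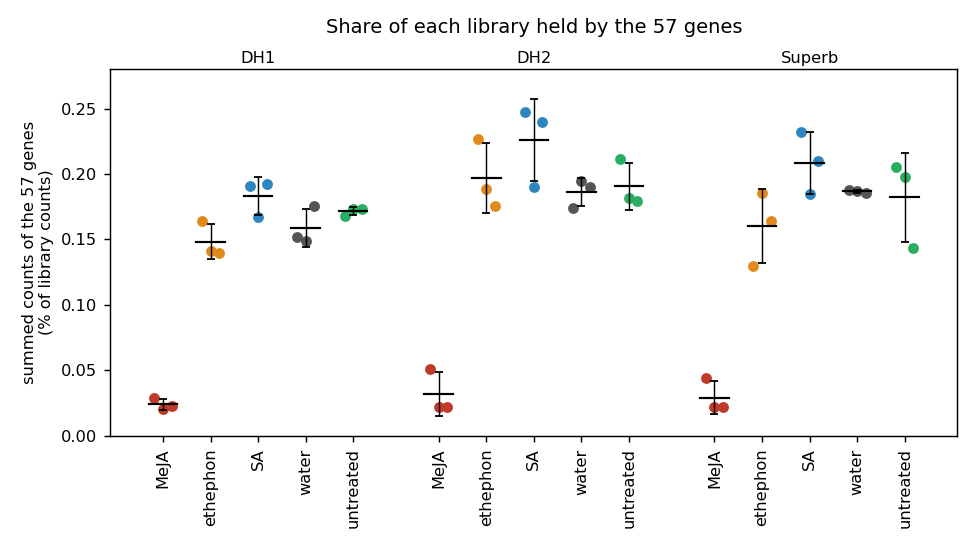
Share of all counts in each library taken by the 57 genes, in percent, by treatment and genotype, with each library as a point and the mean ± SD over 3 libraries. The MeJA libraries lie lowest in each genotype, with group means between 0.0240% and 0.0318%, and the other groups have means between 0.148% and 0.226%.

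Among the 57 genes, the mean level after MeJA ran from 0.144 to 30.5 CPM in DH1 with a median of 1.85, from 0.149 to 30.5 CPM in DH2 with a median of 2.36, and from 0.488 to 24.9 CPM in Superb with a median of 2.29. After water it ran from 5.32 to 138.1 CPM in DH1 with a median of 11.3, from 5.63 to 159.0 CPM in DH2 with a median of 14.4, and from 5.16 to 160.0 CPM in Superb with a median of 13.6. Most of the genes were thus of low to moderate abundance, close to the minimum that the choice set. CPM is not corrected for gene length, so these levels do not rank the genes against each other. In single MeJA libraries, the median count per gene was 22 in DH1, 28 in DH2 and 23 in Superb, and 3 counts of 0 occurred, all after MeJA.

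The level left after MeJA, as a percentage of the level after water, had a median of 15.5% in DH1 (range 1.62% to 24.2%), 17.1% in DH2 (1.88% to 24.3%) and 16.8% in Superb (4.05% to 24.4%). On the log2 scale of the edgeR fit, the median difference between MeJA and water was -2.53 in DH1, -2.30 in DH2 and -2.44 in Superb, against -0.04, 0.00 and 0.00 over all tested genes. All 57 genes had an adjusted p under 0.05 for lower RNA after MeJA in each genotype, where 11.4% of all tested genes did so in DH1, 9.22% in DH2 and 9.58% in Superb. The MeJA and water libraries of all 57 did not overlap, whereas every MeJA library lay below every water library for 29.1% of tested genes in DH1, 27% in DH2, 25% in Superb and 11.4% in all of them. These values chose the genes and are given as a description. At the thresholds, the member nearest to the MeJA limit, on chromosome 2B, kept 24.4% and the nearest gene beyond it, on 4B, kept 25.1%. The lowest water mean inside was 5.16 CPM, on 6D, and the highest outside was 4.95 CPM, on 3D. The water mean over the untreated mean was 0.501 for a member on 3D and 2.06 for the nearest gene outside, on 6D.

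A minority of the genes kept much less of their water level than the rest. Levels of 12.5% or less of water in all genotypes were found for 9 of the 57 genes, and of 6.25% or less for 2. The lower of those 2, on chromosome 5B, averaged 0.144 CPM after MeJA against 8.92 CPM after water in DH1. In DH2 it averaged 0.149 CPM after MeJA against 7.92 CPM after water, and in Superb 0.535 CPM after MeJA against 13.2 CPM after water. The other, on chromosome 2B, averaged 0.368 CPM after MeJA against 9.85 CPM after water in DH1, 0.773 against 14.4 CPM in DH2, and 0.779 against 13.6 CPM in Superb. Both had low levels after MeJA in every genotype. A mean under 1 CPM after MeJA was found for 16 genes in DH1, 6 in DH2, 11 in Superb and 6 in all of them.

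TraesCS3A01G148700 and TraesCS5D01G505700 had the highest mean CPM after water. TraesCS3A01G148700 had 20.0, 15.7 and 15.4 CPM in the MeJA libraries of DH1, against 117, 135 and 134 CPM in its water libraries. In DH2 it had 48.9, 15.9 and 16.7 CPM after MeJA, against 172, 167 and 138 CPM after water. In Superb it had 34.0, 10.1 and 13.7 CPM after MeJA, against 174, 161 and 145 CPM after water. The groups did not overlap in any genotype, and replicate 1 was the highest of the MeJA libraries in each. The log2 difference was -2.75 (SE 0.33) in DH1, -2.35 (SE 0.32) in DH2 and -2.91 (SE 0.33) in Superb. TraesCS5D01G505700 had 44.3, 22.2 and 25.1 CPM after MeJA in DH1, against 132, 146 and 137 CPM after water. In DH2 it had 53.2, 21.5 and 17.0 CPM after MeJA, against 111, 147 and 121 CPM after water, and in Superb 40.2, 19.2 and 15.4 CPM after MeJA, against 135, 144 and 137 CPM after water. Again no MeJA library reached a water library, and replicate 1 was the highest after MeJA. Its log2 difference was -2.02 (SE 0.26) in DH1, -1.85 (SE 0.26) in DH2 and -2.32 (SE 0.27) in Superb.

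**Figure D2:**
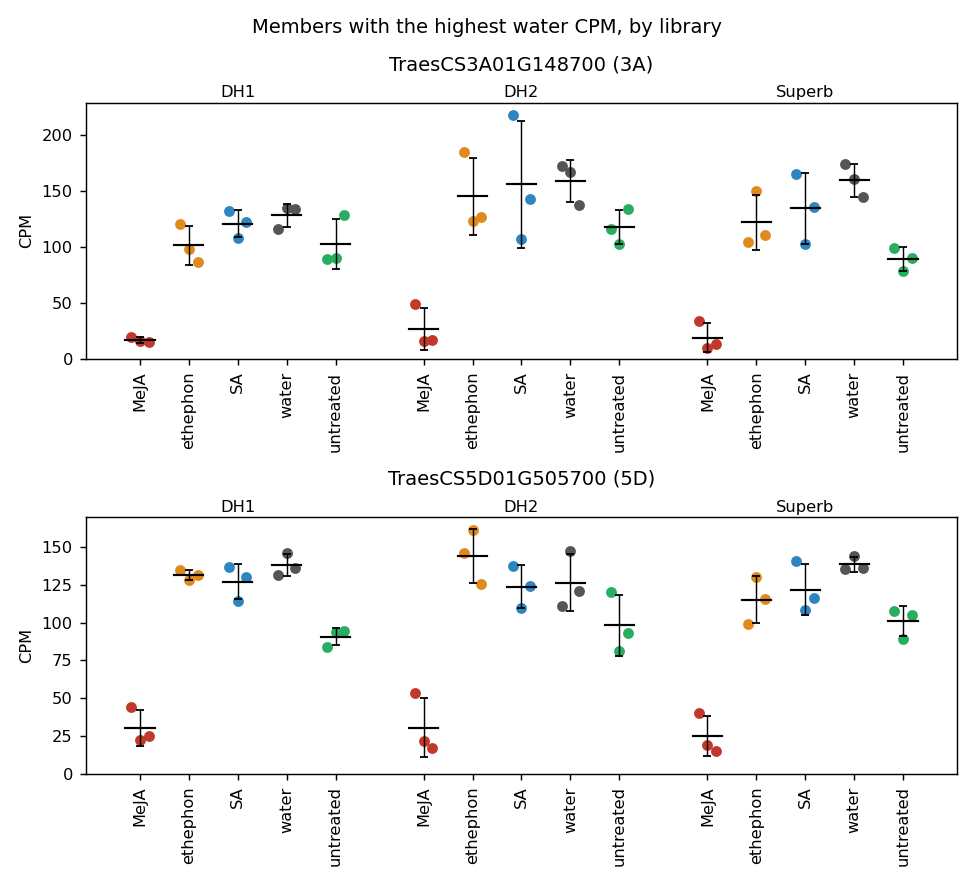
Level in CPM of TraesCS3A01G148700 and TraesCS5D01G505700 in each library, by treatment and genotype, with points for libraries and mean ± SD over 3 libraries. In the MeJA libraries the levels are 10.1 to 53.2 CPM, and in the water libraries 111 to 174 CPM.

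Replicate 1 kept more of this RNA after MeJA than the other replicates in DH2 and Superb. The median gene kept 26.2% of the mean water level in replicate 1 of DH2, 13.2% in replicate 2 and 12.8% in replicate 3. In Superb it kept 25.5% in replicate 1, 12.5% in replicate 2 and 11.1% in replicate 3. In DH1 the libraries lay closer together, at 16.1%, 13.6% and 15.2%. Replicate 1 was the highest MeJA library for 50 of the 57 genes in DH2, 49 in Superb and 31 in DH1. The coefficient of variation between MeJA libraries had a median of 25.4% in DH1, 56.8% in DH2 and 46.8% in Superb, against 19.2% in DH1, 15.8% in DH2 and 14.8% in Superb between water libraries. What sets replicate 1 apart was not tested. When DH2 MeJA replicate 1 was left out, 93 genes met the criteria, and all 57 were among them.

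The genes that kept least in one genotype tended to keep least in the others. Across the 57 genes, Pearson's r between the log2 ratios of MeJA to water was 0.90 for DH1 with DH2, 0.82 for DH1 with Superb and 0.75 for DH2 with Superb. Each point is a gene, the genes are not independent replicates, and the limit of 25% cuts off the upper end in each genotype. The lowest percentage was in DH1 for 32 genes, in Superb for 20 and in DH2 for 5. For the median gene, the highest percentage of the genotypes was 1.43 times the lowest, and the largest such ratio was 3.33.

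Over the 8 h between untreated and water-sprayed spikelets, the ratio of water to untreated means had a median of 0.961 in DH1 (range 0.501 to 1.57), 0.989 in DH2 (0.513 to 1.84) and 1.13 in Superb (0.504 to 1.83). The spray and the elapsed time cannot be told apart here. The water mean lay above the untreated mean in all genotypes for 21 genes, and below it in all genotypes for another 21. The choice bounded this ratio. Called differences, at an adjusted p under 0.05, were 0 higher and 7 lower of 57 in DH1, 1 and 9 in DH2, and 2 and 5 in Superb, beside 13.1% higher and 12.5% lower of all tested genes in DH1, 12.9% and 13.8% in DH2, and 13.9% and 13.6% in Superb.

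After SA or ethephon, none of the 57 genes was as low as after MeJA. The level after SA, as a percentage of water, had a median of 105% in DH1 (range 53.7% to 230%), 106% in DH2 (61.4% to 222%) and 95.2% in Superb (69.6% to 212%). The level after ethephon had a median of 94.1% in DH1 (64.3% to 140%), 104% in DH2 (54.3% to 151%) and 83.7% in Superb (49.6% to 113%). The lowest of these, 49.6% in Superb after ethephon, was above the highest level after MeJA, 24.4%. Both comparisons use the water libraries that chose the genes, and share them, so they carry no test. In Superb, ethephon replicate 1 was the lowest ethephon library for 45 of the 57 genes, and their summed share there was 69.6% of the mean water share, against 99.5% and 88.1% in replicates 2 and 3. That library is the one with counts of genes particular to DH1. The median log2 difference between ethephon and water over the 57 genes in Superb was -0.23, and -0.10 without that library. In DH1 it was -0.09, and -0.20 without ethephon replicate 1 of both Superb and DH1.

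**Figure D3:**
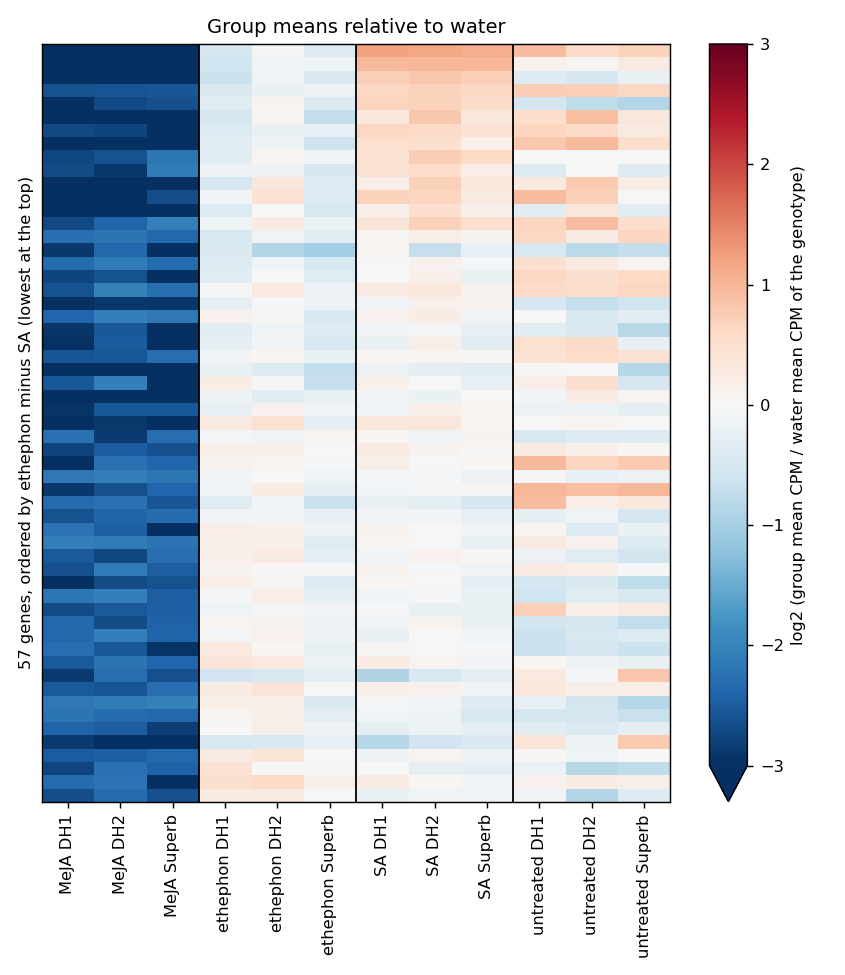
Log2 ratio of the group mean CPM to the water mean CPM of the same genotype, for each of the 57 genes (rows). Columns are MeJA, ethephon, SA and untreated spikelets, each in DH1, DH2 and Superb. Rows are ordered by the ethephon minus SA difference, and colours are limited to ±3. The MeJA columns are low throughout, with medians of 15.5%, 17.1% and 16.8% of water. The ethephon and SA columns have medians between 83.7% and 106% of water.

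The ethephon and SA libraries were not used in the choice, so their difference was tested. Within single genotypes, edgeR's quasi-likelihood test called 0 of the 57 genes in either direction in DH1, DH2 or Superb. The background was 0.0729% of tested genes lower after ethephon in DH1, 0.0317% in DH2 and 0.0539% in Superb, and 0.00476%, 0% and 0.0856% higher. At an unadjusted p under 0.05 the genes numbered 11 in DH1, 8 in DH2 and 11 in Superb, or 19.3%, 14.0% and 19.3% of the 57, against 4.93%, 2.69% and 4.24% of all tested genes. All 57 had at least 5 CPM after water, while the tested genes include less abundant ones, here and in the shares below. The median log2 difference of the 57 genes was -0.05 in DH1, 0.01 in DH2 and -0.15 in Superb, against 0.01, 0.01 and 0.00 over all tested genes. DESeq2 called 3 of the 57 lower in DH1, 0 in DH2 and 1 in Superb, where it called 0.103% of all tested genes lower in DH1, 0.0523% in DH2 and 0.0587% in Superb. In fits without ethephon replicate 1 of Superb, of DH1 or of both, the counts of the 57 by edgeR stayed at 0. Without both, the background was 0.0312% lower in DH1 and 0.00623% lower in Superb, with 0% higher in each, and the median of the 57 was -0.11 in DH1 and -0.06 in Superb. In simulated data for ethephon against SA in Superb, on 61643 genes, the fit recovered 41% of the 2-fold and 82% of the 4-fold changes. Of its 134 calls there, 11 were false.

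Over the mean of the 3 genotypes, a contrast added after the data had been seen, 7 of the 57 genes fell after ethephon relative to SA and 0 rose. That is 12.3% of the genes, against 0.499% of all tested genes lower and 0.0317% higher. Among the 27252 genes that met the water and untreated criteria, 0.264% were lower and 0.011% higher. At an unadjusted p under 0.05 the genes numbered 15, or 26.3% of the 57 against 6.14% of all tested genes, and DESeq2 called 10 lower and 0 higher, where it called 0.596% of all tested genes lower and 0.0428% higher. The median log2 difference was -0.07 over the 57 genes and 0.02 over all tested genes. Those of the 7 lay between -1.42 and -0.82, while the other 50 lay between -0.71 and 0.35 with a median of -0.01, of which 25 were below 0 and 25 above. Every ethephon library lay below every SA library for 14 genes in DH1, 9 in DH2 and 12 in Superb, and in all genotypes for 8, where 4.68%, 5.15% and 5.09% of tested genes did so in turn and 0.415% in all. Of the 7 called genes, 6 were among those 8. Both lists come from the same libraries, so their overlap is no separate evidence. The count of 7 fell to 4 without ethephon replicate 1 of Superb, when 239 of 64232 genes (0.372%) were lower. It was 7 without ethephon replicate 1 of DH1, with 0.405% of tested genes lower, and 5 without both, with 0.304% lower. It was also 4 without DH1 ethephon replicate 2 (0.406% of tested genes lower), DH1 ethephon replicate 3 (0.422%), DH2 ethephon replicate 2 (0.408%) or DH2 SA replicate 3. A difference between genotypes in the ethephon against SA effect was called for 0 of the 63091 tested genes by edgeR, and 0 of the 57 genes had an unadjusted p under 0.05. DESeq2 was not run for that difference.

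The 7 genes lay on both sides of their water level. As a percentage of water, ethephon left between 64.3% and 80.4% in DH1, 85.7% and 106% in DH2, and 60.3% and 90.3% in Superb. SA left between 124% and 230% in DH1, 148% and 222% in DH2, and 124% and 212% in Superb. The SA levels lay above water in each genotype, and ethephon was below or near it. Untreated spikelets held between 67.4% and 189% of the water level in DH1 (median 143%), 59.0% and 188% in DH2 (149%), and 54.7% and 160% in Superb (121%). The untreated level was thus also above water for some of the 7 genes and below it for others. All of these percentages share the water libraries. By chromosome, 5 of the 7 were on group 6 chromosomes, which hold 11 of the 57 genes. Of the 27252 genes that met the water and untreated criteria, 6A held 3.96%, 6B 4.21% and 6D 3.97%. Those 5 include the neighbouring genes TraesCS6D01G206000 and TraesCS6D01G206100, which may share reads. The placement was not tested.

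**Figure D4:**
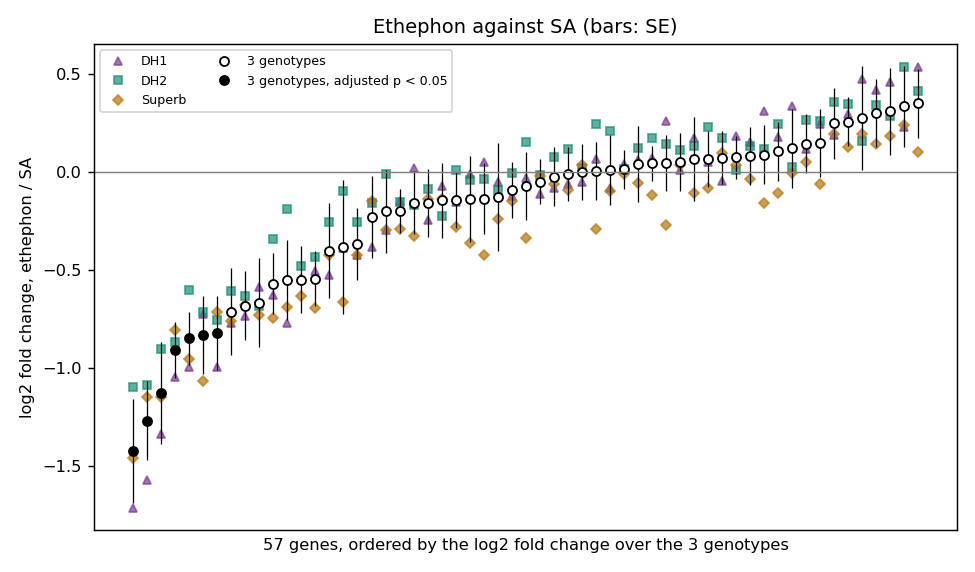
Log2 difference of ethephon over SA for each of the 57 genes, in DH1, DH2 and Superb and over the mean of the 3 genotypes with its standard error, with the 7 genes at an adjusted p under 0.05 filled. The 7 lie between -1.42 and -0.82, and the other 50 between -0.71 and 0.35.

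TraesCS6A01G183200 and TraesCS7D01G242500 had the smallest adjusted p-values of this contrast. TraesCS6A01G183200 had 11.6, 9.50 and 9.45 CPM after ethephon in DH1, against 22.5, 20.1 and 21.2 CPM after SA. In DH2 it had 13.7, 15.1 and 12.2 CPM after ethephon, against 22.5, 25.7 and 27.4 CPM after SA, and in Superb 10.3, 16.7 and 16.5 CPM after ethephon, against 23.9, 25.3 and 26.1 CPM after SA. The ethephon and SA libraries did not overlap in any genotype. The log2 difference over the genotypes was -0.91 (SE 0.14), with an adjusted p of 0.000288 by edgeR. After water it had 15, 12.2 and 14.0 CPM in DH1, 15.7, 14.0 and 17.0 CPM in DH2, and 17.3, 17.7 and 13.7 CPM in Superb. The water libraries lay below the SA libraries in each genotype, and overlapped the ethephon libraries in DH2 and Superb but not in DH1. Untreated spikelets had 24.3, 24.4 and 20.0 CPM in DH1, 27.1, 27.8 and 21.2 CPM in DH2, and 29.2, 35.4 and 10.8 CPM in Superb. After MeJA it had 2.77, 1.87 and 2.13 CPM in DH1, 2.60, 2.80 and 2.33 CPM in DH2, and 4.54, 2.23 and 1.40 CPM in Superb.

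TraesCS7D01G242500 had 31.5, 25.8 and 28.2 CPM after ethephon in DH1, against 57, 58.5 and 54.7 CPM after SA. In DH2 it had 102, 89.2 and 75.1 CPM after ethephon, against 117, 128 and 162 CPM after SA, and in Superb 56.0, 96.8 and 69.3 CPM after ethephon, against 134, 145 and 151 CPM after SA. The groups did not overlap in any genotype. The log2 difference was -0.85 (SE 0.14), with an adjusted p of 0.000331 by edgeR. Leaving out any 1 ethephon or SA library gave log2 differences between -0.95 and -0.84 for TraesCS6A01G183200 and between -0.93 and -0.80 for TraesCS7D01G242500, and both were called in each of these fits.

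TraesCS6D01G206000 and TraesCS6D01G206100 were the only members next to each other in the annotation, and were named after their values had been seen. The next nearest pair, on 2B, lay 132 annotated genes apart. In DH1, TraesCS6D01G206100 had 3.39, 2.93 and 2.71 CPM after MeJA, against 92.4, 59.0 and 136 CPM after water. In DH2 it had 20.3, 2.66 and 2.65 CPM after MeJA, against 137, 161 and 160 CPM after water. In Superb it had 29.9, 5.16 and 8.07 CPM after MeJA, against 144, 144 and 134 CPM after water. Replicate 1 was highest after MeJA in DH2 and Superb, as for most of the genes. TraesCS6D01G206000 had 1.44, 1.56 and 2.03 CPM after MeJA in DH1, 12.8, 1.94 and 1.38 CPM in DH2, and 14.0, 3.08 and 2.17 CPM in Superb, so both genes showed the same order of libraries in DH2 and the same highest library in Superb. Both were also lower after ethephon than after SA, by a log2 difference of -1.13 (SE 0.26, adjusted p 0.0257 by edgeR) for TraesCS6D01G206000 and -1.42 (SE 0.26, adjusted p 0.0024) for TraesCS6D01G206100. In DH1, TraesCS6D01G206100 had 92.4, 46.3 and 62.8 CPM after ethephon, against 241, 176 and 244 CPM after SA. Neighbouring copies may share reads, so the counts of each alone are uncertain.

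Between genotypes, levels of the 57 genes were compared in the SA and ethephon libraries, which the choice did not use. Against Superb, 1 gene was lower and 0 were higher in DH1, where 0.897% of tested genes were lower and 0.984% higher. In DH2, 1 was lower and 0 higher, where 4.37% were lower and 1.76% higher. At an unadjusted p under 0.05 the genes numbered 6 in DH1 (10.5% of the 57, against 8.90% of all tested genes) and 13 in DH2 (22.8% against 16.4%). DESeq2 called 1 lower and 0 higher in DH1, where it called 0.934% of all tested genes lower and 0.994% higher. In DH2 it called 1 lower and 2 higher, where it called 4.34% lower and 1.93% higher. The median log2 difference of the 57 genes was -0.08 in DH1 and 0.17 in DH2, against -0.0007 and -0.0038 over all tested genes. In DH2, 44 of the 57 genes lay above 0, a count that was not tested. Without ethephon replicate 1 of both Superb and DH1 the medians of the 57 were -0.18 in DH1 and 0.12 in DH2. The calls were as before, and 3.06% of tested genes were lower in DH2. The count of 0 higher in DH2 depended on the fit. It was 5 with the replicate number as a block (8.77% of the 57, against 2.01% of all tested genes). It was 3 with DESeq2 size factors as scaling (5.26% against 1.91%) and 1 with no filter on low counts (1.75% against 1.32%). It was also 5 without DH2 SA replicate 2 or Superb SA replicate 1. Without DH2 ethephon replicate 3 it was 3 (5.26% against 1.51%), and without DH2 ethephon replicate 2 it was 2 (3.51% against 1.52%). It was 1, or 1.75% of the 57, without DH1 ethephon replicate 3 (against 1.78% of all tested genes) or DH1 SA replicate 2 (1.75%). The count was also 1 without DH2 SA replicate 3, Superb ethephon replicate 2 or Superb SA replicate 3. A count of 1 was near the 1.76% of tested genes given above. The counts lower were 1 in each line under every alternative run, and no statement about the 57 genes as a group is drawn from 1 gene. In simulated data for DH1 against Superb, the edgeR fit recovered 78% of the 2-fold and 94% of the 4-fold changes. Of its 184 calls there, with genes changed in the other simulated contrast left out, 12 were false. TraesCS7D01G242500 was the gene lower in DH1, as its values above show. The log2 difference of DH1 from Superb was -1.38 (SE 0.17, adjusted p 2.34e-07 by edgeR), and between -1.46 and -1.26 when any 1 library was left out. Without ethephon replicate 1 of both Superb and DH1 it was -1.51. In the libraries that chose the genes, its levels also lay apart, with 4.42, 3.43 and 2.81 CPM after MeJA in DH1 and 20.3, 13.4 and 13.3 CPM in Superb.

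TraesCS7A01G510200 was the gene lower in DH2. In DH2 it had 21.4, 22.0 and 19.4 CPM after ethephon and 19.0, 23.1 and 21.9 CPM after SA. In Superb it had 66.6, 89.9 and 73.8 CPM after ethephon and 79.5, 82.4 and 71.7 CPM after SA, with no overlap between the lines. The log2 difference of DH2 from Superb was -1.93 (SE 0.15, adjusted p 2.01e-12 by edgeR), between -1.97 and -1.86 when any 1 library was left out, and -1.97 without Superb ethephon replicate 1. After MeJA it had 4.76, 2.51 and 2.12 CPM in DH2, against 25.1, 25.8 and 17.7 CPM after water, and in Superb 20.7, 13.8 and 10.2 CPM after MeJA, against 70.7, 78.7 and 68.5 CPM after water. The gene was thus low after MeJA in both genotypes at different base levels. Reads may be shared among homoeologs and duplicates of a wheat gene, and reads of another parent's allele may align less well, so differences between genotypes in single copies are uncertain.

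**Figure D5:**
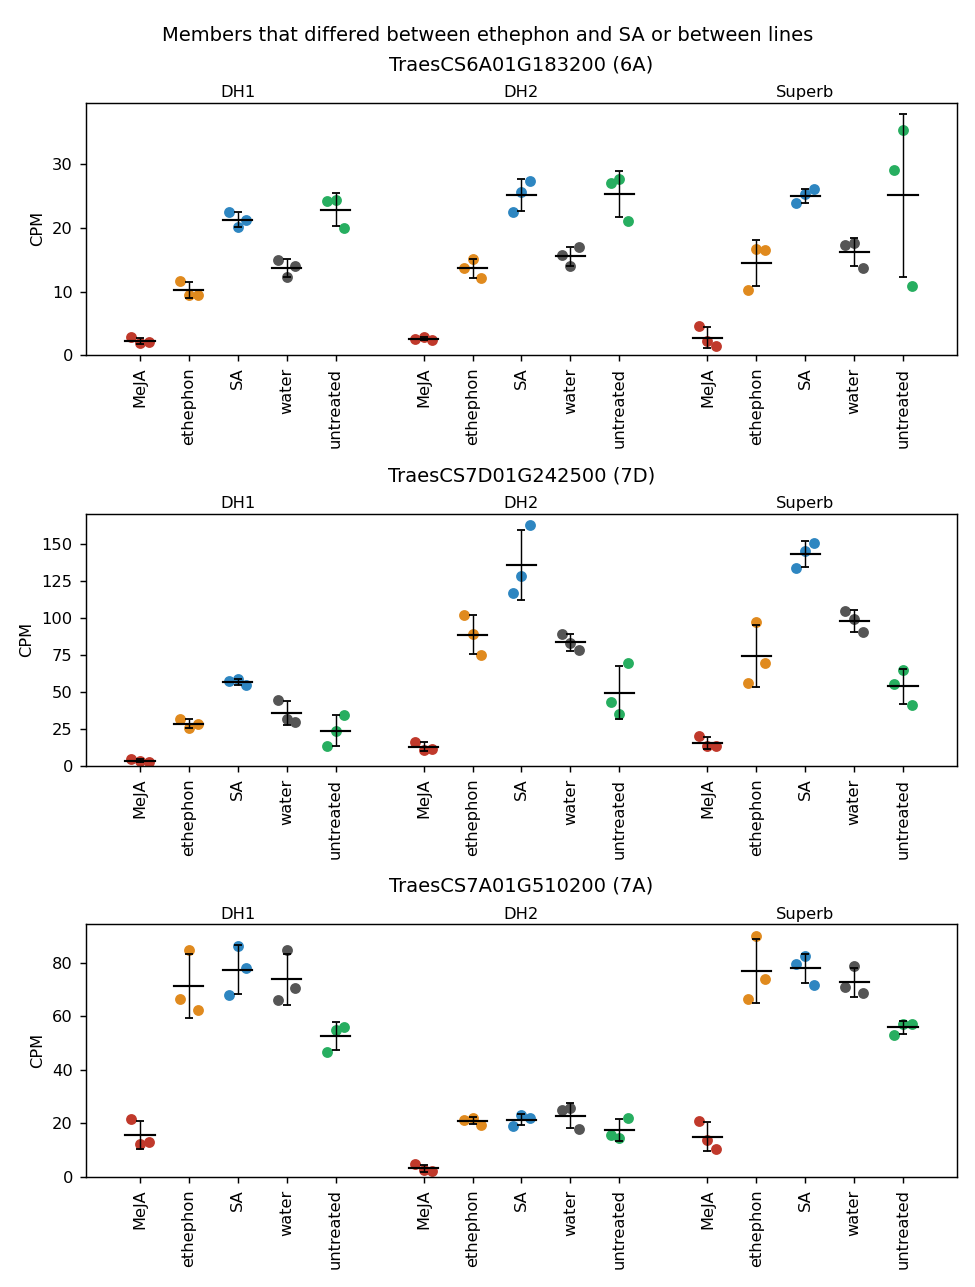
Level in CPM of TraesCS6A01G183200, TraesCS7D01G242500 and TraesCS7A01G510200 in each library, by treatment and genotype, with points for libraries and mean ± SD over 3 libraries. TraesCS7D01G242500 lies lower in DH1 than in Superb, and TraesCS7A01G510200 lower in DH2 than in Superb, in the ethephon and SA libraries.

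The D subgenome, 1 of the 3 ancestral genomes of bread wheat, held 27 of the 57 genes (47.4%), the A subgenome 18 (31.6%) and the B subgenome 10 (17.5%), and 2 genes were unplaced. Among the 27252 genes that met the water and untreated criteria, 33.4% lay on D, 33.3% on A and 32.5% on B. Chromosome 6D held the most members, 6 (10.5%, against 3.97% of those 27252 genes). Chromosomes 2D, 5D and 7D held 5 each (8.77%, against 5.40%, 5.45% and 4.88%). None lay on 1B, 4D or 7B, which held 4.37%, 4.07% and 4.39% of the 27252. These small counts were not tested.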

How the data were processed

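RNA was sequenced from spikelets as TruSeq libraries, per the labels' protocols. The authors deposited unscaled read counts for each gene, whole numbers with a different total in each library. Reads were aligned with STAR 2.5.3a, and DESeq2 is named without its role, per the submitters' processing notes. For the counter and its handling of strand and multiply mapped reads, the sources used here give nothing. From the counts, CPM were computed as count / column sum, without length correction. Genes passing filterByExpr over 15 groups (63091 of 110790) were fitted with edgeR 4.0.16 (TMM, quasi-likelihood, R 4.3.3) in all 45 libraries, with Benjamini-Hochberg adjustment over all tested genes and a threshold of 0.05. Standard errors are the absolute log2 difference over the square root of F. DESeq2 1.42.0, no filter, other scaling, leaving out libraries and a replicate block were alternatives. Named genes are the 2 members with the highest water CPM and, per tested contrast, at most 2 called in each direction with the smallest adjusted p; exceptions are stated. Members, lists and tests were chosen with earlier results of these data known. No identifier matched the reference table (0), so no names are given. The fit was checked on simulated data for ethephon against SA in Superb and for DH1 against Superb, with the recovery given beside each result. Ethephon against SA over the 3 genotypes was not simulated.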

Additional observations from a re-analysis of the deposited data

How the results depend on the processing

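The number of genes that met the criteria was 36 with TMM-scaled CPM and 36 with DESeq2 size factors, each with 35 of the 57, and these scalings raised the MeJA to water ratio by 0.17, 0.23 and 0.17 log2 (TMM) and 0.18, 0.23 and 0.18 log2 (DESeq2) in DH1, DH2 and Superb. It was 90 with a water minimum of 2 CPM and 32 with 10, 601 with a MeJA limit of 50% and 9 with 12.5%, and 165, 121 and 169 when only DH1, DH2 or Superb was used. Without single libraries it ran from 46 to 93. Ethephon against SA called 1 gene lower in DH1 with the replicate block (1.75% of the 57, against 0.109% of all tested genes) and 3 by DESeq2. In Superb it called 1 by DESeq2 (0 to 1 without single libraries). Over the 3 genotypes it called 9 with the replicate block (15.8% against 0.572%), 10 by DESeq2 and 4 to 9 without single libraries. Of the 7, 4 were called in all 23 other settings. DH2 above Superb called 3 with DESeq2 scaling (5.26% against 1.91%) and 1 with no filter (1.75% against 1.32%). It called 5 with the replicate block (8.77% against 2.01%), 2 by DESeq2 and 0 to 5 without single libraries. The shares of all tested genes called by DESeq2 are given with each result above. As shares of the TMM-scaled library, the 57 genes held 0.154% after water against 0.179% untreated in DH1. These shares were 0.174% against 0.201% in DH2 and 0.180% against 0.191% in Superb. Unscaled shares had water above untreated in Superb alone, at 0.187% against 0.182%. The cause of these moves was not tested. Same-numbered ethephon and SA libraries had deviations correlated with r between -0.19 and 0.20. Between lines and Superb, same-numbered SA libraries had r of 0.11 to 0.25 in DH1 and 0.13 to 0.35 in DH2, each above the r with other numbers, a hint from the data and not from the design. Ethephon libraries had 0.08 to 0.17 in DH1, also above the r with other numbers (-0.13 to 0.02). In DH2 they had -0.03 to 0.08, where other numbers gave -0.11 to 0.12. Not every pair exceeded 0.1, so the fit without the block was kept. The count of genes above Superb in DH2 depended on that choice, at 0 without the block and 5 with it. The low counts after MeJA limit the precision of each percentage.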
